A study of Mus musculus with 6 samples.

Results

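The genes described here encode the adhesion proteins of the cardiac intercalated disc, the junction that joins heart muscle cells end to end. They are Dsp, Pkp2, Jup, Dsg2 and Dsc2 of the desmosome, Cdh2, Ctnna1 and Ctnna3 of the adherens junction, and Tjp1, a scaffold at adherens and gap junctions. They were chosen by name, through the match of the table's Ensembl identifiers to these mouse symbols. All 9 had a row among the 20254 genes with values, and all 9 were among the 13823 genes tested. RNA from hearts of 6 adult C57BL/6 mice was sequenced, 3 labelled as Trdn-as knockout (KO) and 3 wild type (WT). Trdn-as is a long non-coding RNA named as antisense to the triadin gene Trdn, and the labels say nothing of how its allele was made. In each genotype replicates 1 and 2 were 14 months old and replicate 3 was 5 months old, so the age comparison set 4 libraries against 2. The question the design puts is how the absence of Trdn-as changes the heart's transcripts, and age is the other labelled difference.

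In the desmosome, the cadherins desmoglein and desmocollin span the membrane, plakoglobin and plakophilin bind their tails, and desmoplakin ties the complex to the desmin filaments. In the adherens junction N-cadherin is tied to actin through catenins. In heart muscle the components mix into a hybrid junction, the area composita, and inherited variants of the human desmosome genes cause arrhythmogenic cardiomyopathy. In mice, loss of plakophilin-2 from heart muscle is known to lower transcripts of calcium handling genes, triadin among them.

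The values were a gene-level signal scaled between libraries, with totals of 19.8 to 23.5 in units of 1e6, and the read depth behind them is unknown. Trdn stood at 3429, 3459.7 and 5605.5 in KO replicates 1, 2 and 3, against 5702, 5599.8 and 9104 in WT. Trdn-as was not analysed here, so the genotype labels were not checked on the targeted transcript. Y-linked genes summed to 273 in KO replicate 2 and 213 in WT replicate 2, while the other libraries held 2652 to 4775, and the labels do not give sex. All 12 cardiomyocyte markers were above 0 in every library, as heart tissue should show. Nothing in the labels says whether hearts came from separate litters, and p-values measure the spread between these libraries.

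Levels can be set between genes only per length, here per kilobase of the union of annotated exons. On this scale Dsp, which encodes desmoplakin, averaged 1602 ± 219 signal per kb (SD, n = 6). Ctnna1, the alpha-catenin found in most tissues, followed at 1157 ± 230 signal per kb, and Dsp lay above it in 5 of 6 libraries. Cdh2, the N-cadherin of heart muscle, came next with 658 ± 170 signal per kb and lay below Ctnna1 in 6 of 6 libraries. Pkp2, plakophilin-2, at 402 ± 52.4 signal per kb, and Jup, plakoglobin, at 374 ± 150.4 signal per kb, did not keep an order: Pkp2 was the higher in 2 of 6 libraries, both of 5 months. Tjp1, which encodes the scaffold ZO-1, had 195 ± 24.5 signal per kb, the desmoglein gene Dsg2 had 190.1 ± 20.8 and the desmocollin gene Dsc2 had 166 ± 12.6. These last 3 overlapped between libraries, so their order is not settled by the data. Jup reached into their range at 5 months, with 169 signal per kb in KO, where Dsg2 had 205, and lay above Tjp1 in 5 of 6 libraries. Ctnna3, the alpha-T-catenin that binds plakophilin-2, was lowest in 6 of 6 libraries at 64.8 ± 9.42 signal per kb. With the mean length of the coding transcripts in place of the exon union, Ctnna1 (5189.7 signal per kb) stood above Dsp (1784 signal per kb). That mean length was 1432 bp for Ctnna1, against 6425 bp for its exon union, so this order depends on the length used. Cdh2, Dsc2 and Ctnna3 alone kept their place.

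**Figure D1:**
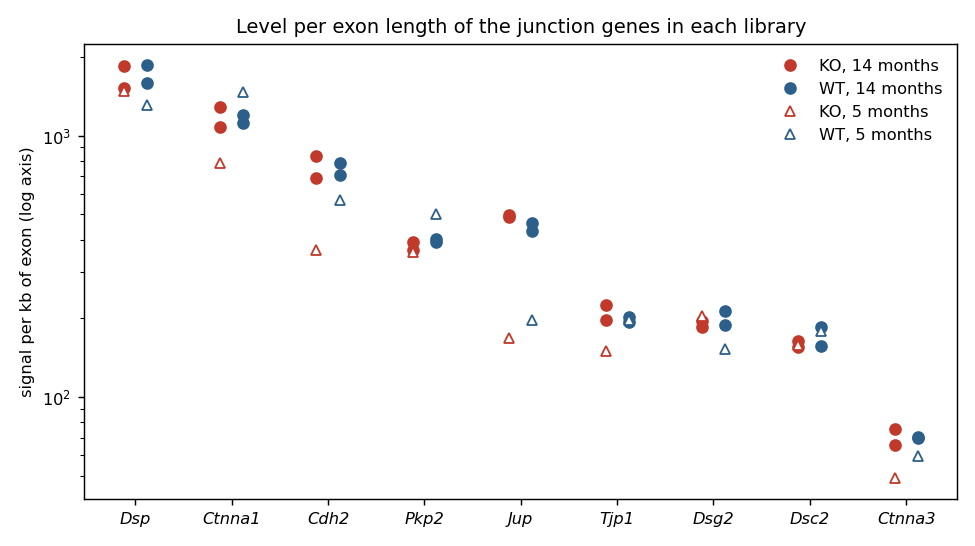
Signal per kb of exon (log axis) of each junction gene in each library, genes ordered by their mean, with circles for 14 months, open triangles for 5 months, red for KO and blue for WT. Dsp averaged 1602 and Ctnna3 64.8 signal per kb, and the triangles of Jup (169 in KO, 197 in WT) lie apart from its circles (430 to 499).

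With the genotype difference taken as equal at both ages, no junction gene differed between KO and WT beyond the spread between libraries. A genotype difference that varied with age adds to the spread in such a fit, and the interaction is given below. The limma fit with age as a covariate called 0 of 9 members, where the background was 0% of all genes tested. At an unadjusted limma p under 0.05 it found 0 members and 841 genes in all (6.08%). The median of the members and that of all genes tested were -0.09 and -0.02 log2. The members stood above WT in 3 of 9 cases and below in 6, and this split was 5 to 4 with scaling to the total without mitochondrial genes and 1 to 8 after removal of GC and length trends. In 0 members did the 3 KO libraries lie all above or all below the 3 WT libraries. That happened in 2.88% of all genes upward and 2.89% downward. All 10 fibroblast markers had estimates below 0 (median -0.29 log2, 0 called by limma), with sums of 19283 to 40193 in KO and 34338 to 41401 in WT. So did 10 of 12 cardiomyocyte markers (median -0.16 log2), 9 of 10 macrophage, 8 of 10 endothelial, 7 of 10 smooth muscle and pericyte and 5 of 5 tested erythroid markers. Of those tested, 6 of 7 epithelial and mesothelial, 7 of 9 adipocyte and 5 of 7 Schwann cell markers lay above 0. The part of cell makeup in the member values was not tested.

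Among the plaque and filament linkers, Dsp had 14699, 17857 and 14289 in KO replicates 1, 2 and 3, against 18026, 15370 and 12619 in WT. The groups overlapped, with KO below WT in replicate 1 and above it in the others, and the fitted difference was 0.03 log2 (SE 0.14, 95% interval -0.28 to 0.35, limma adjusted p = 0.951). After removal of GC and length trends it lay just under 0 (-0.0030 log2). Pkp2 had 1956, 2107 and 1917 in KO and 2093, 2154 and 2696 in WT. KO lay below WT in every replicate number, with differences of -0.10, -0.03 and -0.49 log2, yet the ranges overlapped because KO replicate 2 exceeded WT replicate 1. The fit gave -0.21 log2 (SE 0.12, interval -0.49 to 0.08, limma adjusted p = 0.745). Jup had 3209, 3152 and 1086.5 in KO against 2769, 2967 and 1266 in WT, higher in KO at 14 months and lower at 5 months. Its fitted difference was 0.03 log2 (SE 0.12, interval -0.25 to 0.30, limma adjusted p = 0.956), and -0.06 after removal of GC and length trends.

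Of the cadherins, Dsg2 had 1532, 1609.9 and 1691 in KO and 1764, 1566 and 1266 in WT. The KO libraries lay inside the WT range, and the difference was 0.08 log2 (SE 0.14, interval -0.23 to 0.40, limma adjusted p = 0.868). Its partner Dsc2 varied least of the 9, with the highest library 1.19 times the lowest. Its values were 863, 818 and 835 in KO and 975, 826 and 942 in WT, below WT in each replicate number, with differences of -0.18, -0.01 and -0.17 log2. The fit gave -0.12 log2 (SE 0.12, interval -0.39 to 0.15, limma adjusted p = 0.780). Cdh2 had 5559, 6721 and 2940.5 in KO and 6338, 5708 and 4592 in WT, with -0.20 log2 (SE 0.16, interval -0.58 to 0.18, limma adjusted p = 0.759). KO replicate 3 was its lowest library, and at 14 months alone the difference was 0.02 log2.

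For the catenins and the scaffold, Ctnna1 had 6941, 8287 and 5037 in KO, against 7690, 7181 and 9448 in WT. Its estimate was the furthest from 0 among the members at -0.28 log2 (SE 0.20, interval -0.73 to 0.17, limma adjusted p = 0.745). The 5-month pair lay furthest apart: the differences were -0.15, 0.21 and -0.91 log2 in replicates 1, 2 and 3, and 0.03 log2 at 14 months alone. Ctnna3 had 474, 545 and 354 in KO and 507, 502 and 429 in WT, -0.09 log2 (SE 0.13, interval -0.38 to 0.21, limma adjusted p = 0.855). Tjp1 had 1761, 1546 and 1174 in KO and 1519, 1580.3 and 1543 in WT, -0.07 log2 (SE 0.13, interval -0.38 to 0.24, limma adjusted p = 0.888). Both turned positive, to 0.02 and 0.04 log2, when libraries were scaled to their totals without mitochondrial genes. Across the members the 95% intervals ran from a fold of 0.602 for Ctnna1 at the low end to 1.32 for Dsg2 at the high end. A change within a gene's own interval could not be resolved by these 6 libraries. The intervals are not adjusted over genes, so they are not a limit for calls.

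**Figure D2:**
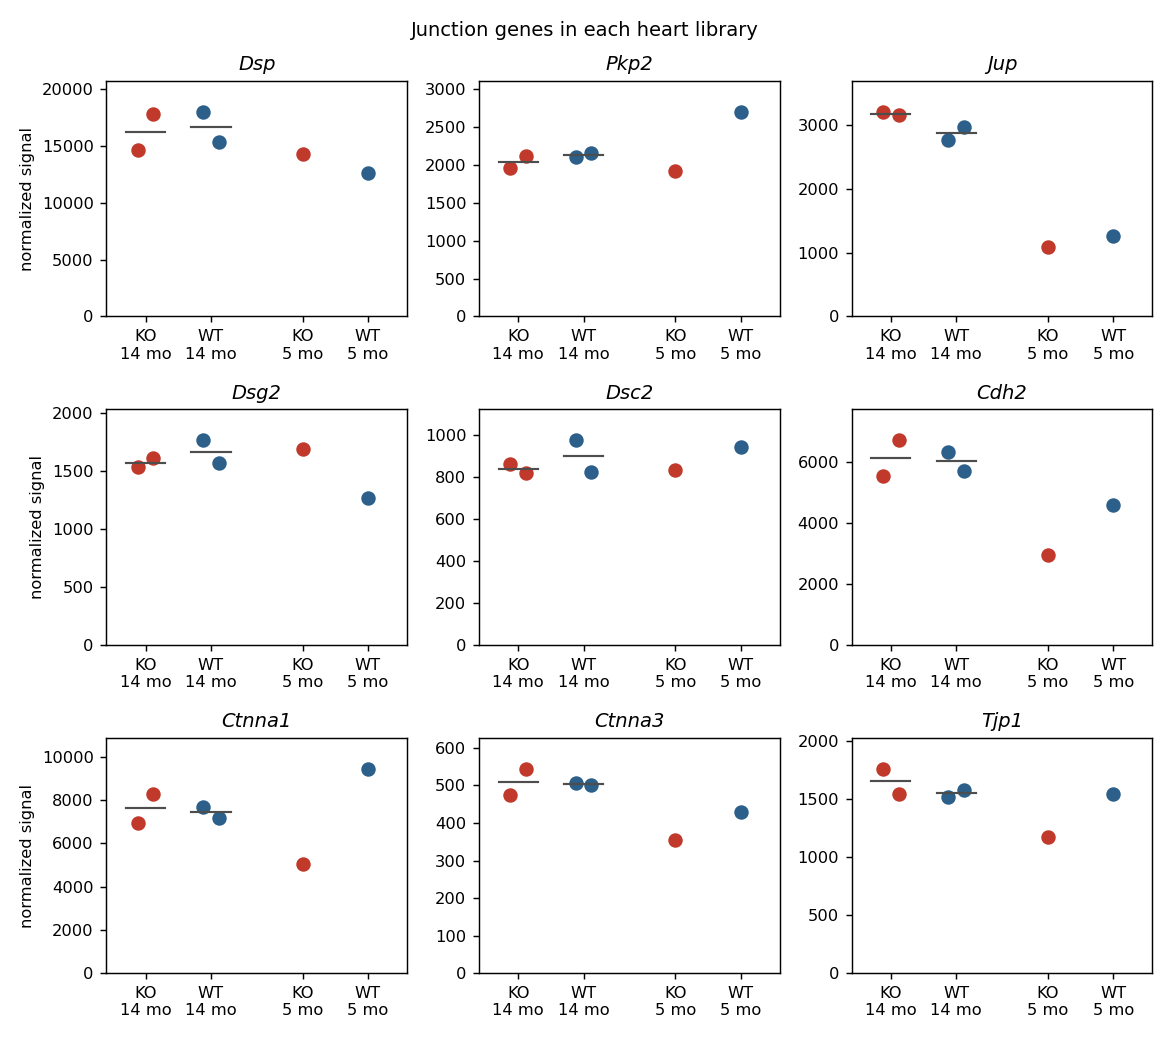
Normalized signal (linear axis from 0) of each junction gene in every library, with a grey line at the mean of the 2 libraries where a genotype and age has 2. KO (red) and WT (blue) points mix in every panel, while the 5-month points of Jup (1086.5 and 1266) and Cdh2 (2940.5 and 4592) lie below all 14-month points.

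Age parted the members. Jup and Cdh2 were higher at 14 than at 5 months, 2.57-fold (95% interval 2.10 to 3.15) and 1.65-fold (1.25 to 2.18). The limma fit with genotype as a covariate called 2 of 9 members, both higher at 14 months, where 33.7% of all genes tested were called (17.7% higher, 16% lower). At an unadjusted limma p under 0.05 it found 3 members and 44.7% of all genes. A count of 2 in 9 is too small to set apart from the 33.7% called or the 17.7% called higher. The member median was 0.25 log2 and that of all genes 0.02. Age falls together with replicate number here, so any other difference between replicate 3 and the rest cannot be told apart from it. In bulk tissue, fewer cells of a type and less RNA per cell cannot be told apart either.

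Jup encodes plakoglobin, the armadillo protein shared by the desmosome and the adherens junction, on chromosome 11 (100368958 to 100397763, minus strand, mm10). Its 14-month values were 3209 and 3152 in KO and 2769 and 2967 in WT, against 1086.5 in KO and 1266 in WT at 5 months. The groups did not overlap, and within each age the libraries lay close together. The fitted difference of 1.36 log2 (SE 0.13, limma adjusted p = 0.000463) kept its call in every alternative run, between 0.90 and 1.56 log2. Without replicate 2, the libraries low in Y-linked signal, it was 1.34 log2. That fit had 1 library per genotype and age, too few to gauge the spread of Jup itself. The part of sex was not tested. Age differences varied with base composition: over all genes the signed 14 minus 5 months difference rose with GC content (Spearman 0.29 over 13779 genes, which are not independent). The median was -0.25 log2 in the quintile of genes lowest in GC and 0.30 log2 in the quintile highest in GC. The difference also rose with exon length (Spearman 0.21). Jup transcripts hold 57.1% GC, above 87.2% of genes tested. Joint removal of GC and length trends lowered the Jup difference to 0.90 log2 (limma adjusted p = 0.00272), and the parts of GC and of length were not separated.

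**Figure D3:**
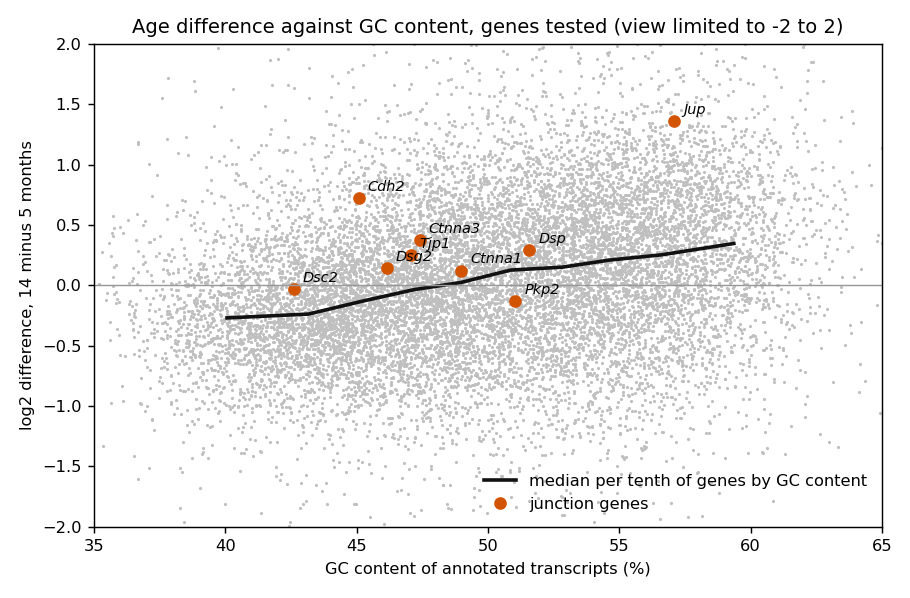
The 14 minus 5 months log2 difference of each tested gene against the GC content of its annotated transcripts (axes limited to 35 to 65% and to -2 to 2), with the median per decile of genes by GC as a line and the junction genes in orange. The median line rises with GC content, and Jup (1.36) and Cdh2 (0.72) lie furthest above it among the 9.

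The 250 bases before the start of Jup are shown beside those of Dsp, since in the main fit Jup was called with age and Dsp was not. Dsp was called with age after quantile normalization and with scaling to the total without mitochondrial genes. They come from RefSeq (GRCm38.p6), at chr11:100397791-100398040 on the minus strand for Jup and chr13:38151044-38151293 on the plus strand for Dsp. Capitals mark matches to the SP1 box GGGCGG on either strand.
Jup: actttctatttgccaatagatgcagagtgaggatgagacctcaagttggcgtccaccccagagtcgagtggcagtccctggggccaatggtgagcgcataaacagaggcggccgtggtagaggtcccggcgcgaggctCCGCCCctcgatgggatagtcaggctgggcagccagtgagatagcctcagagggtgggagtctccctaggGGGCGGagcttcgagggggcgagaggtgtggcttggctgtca
Dsp: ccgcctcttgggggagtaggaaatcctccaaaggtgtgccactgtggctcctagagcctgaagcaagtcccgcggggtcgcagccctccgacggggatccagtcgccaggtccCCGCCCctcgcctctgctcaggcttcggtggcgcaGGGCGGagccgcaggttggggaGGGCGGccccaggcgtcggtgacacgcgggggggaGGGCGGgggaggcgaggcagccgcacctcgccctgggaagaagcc
The SP1 box matched 2 times in the Jup window and 4 times in the Dsp window, and at least once in 32.7% of 32851 such windows. GC made up 62.0% of the Jup window and 72.4% of the Dsp window, where the median of all windows was 52.4%. No match in either was found to the TEAD element CATTCC (12.6% of windows), the MEF2 element (3.20%), the E-box CACGTG (6.02%), the TATA box TATAAA (12.4%) or the SRF CArG box (1.47%), all on both strands, and no matches overlapped.

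Cdh2, on chromosome 18, encodes the cadherin that joins neighbouring heart muscle cells through its outer domain. It had 5559 and 6721 in KO and 6338 and 5708 in WT at 14 months, against 2940.5 in KO and 4592 in WT at 5 months. All 14-month libraries lay above both 5-month libraries, and the 5-month libraries differed from each other more than the 14-month ones did. The difference was 0.72 log2 (SE 0.17, limma adjusted p = 0.0155). Its transcripts are low in GC (45.1%), and removal of GC and length trends left it at 0.72 log2. The call was lost without KO replicate 3, where the difference was 0.39 log2, and without replicate 1, where it was 0.75 log2. Without replicate 2 the difference was 0.69 log2. The fits without replicate 1 or 2 had 1 library per genotype and age, too few to gauge the spread of Cdh2 itself.

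Of the other 7, Ctnna3 (chromosome 10, 63430098 to 65003667) had 474 and 545 in KO and 507 and 502 in WT at 14 months, against 354 in KO and 429 in WT at 5 months. Its libraries also did not overlap between ages, with 0.38 log2 (SE 0.13), but the limma adjusted p was 0.0626. Dsp (chromosome 13, 38151294 to 38198577) was likewise higher in all 14-month libraries, by 0.29 log2 (SE 0.14, limma adjusted p = 0.157). Such a separation upward was found in 4 of 9 members and 25.7% of all genes, and downward in 0 members and 25% of all genes. The Dsp estimate was 0.62 log2 after quantile normalization (limma adjusted p = 0.0189) and -0.05 after removal of GC and length trends, so its direction was not settled. Tjp1 (chromosome 7, 65296165 to 65527781) differed by 0.25 log2 (SE 0.14, limma adjusted p = 0.215), and Dsg2 by 0.14 (SE 0.14, limma adjusted p = 0.475). Ctnna1 stood at 0.12 (SE 0.21, limma adjusted p = 0.680), Dsc2 at -0.03 (SE 0.12, limma adjusted p = 0.870) and Pkp2 (chromosome 16, 16213318 to 16272712) at -0.13 (SE 0.13, limma adjusted p = 0.477). Dsc2 and Ctnna1 changed sign after removal of GC and length trends, to 0.16 and -0.05. Scaling to the total without mitochondrial genes moved the median of all genes to 0.22 log2 and the calls to 3403 higher and 1233 lower, against 2447 and 2216. On that scale 9 of 9 members stood above 0 and 5 were called, Dsp, Ctnna3 and Tjp1 with 0.49, 0.58 and 0.45 log2 in addition.

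**Figure D4:**
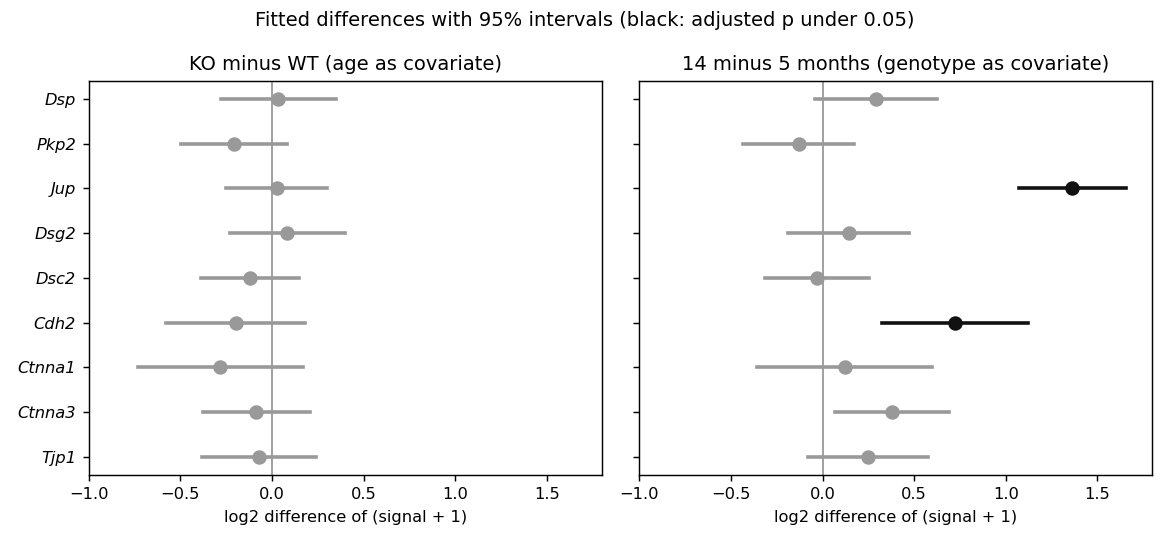
Fitted log2 differences of the junction genes with 95% intervals, KO minus WT on the left and 14 minus 5 months on the right, in black where the adjusted p is under 0.05. All intervals for genotype cross 0, and on the right Jup (1.36) and Cdh2 (0.72) are black.

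Cell type markers moved with age too, where 17.7% of all genes tested were called higher and 16% lower. Summed endothelial markers were 17074 to 22355 at 14 months against 12339 to 14277 at 5 months, with 5 of 10 called higher and 1 lower. The epithelial and mesothelial list summed to 364 to 600.4 against 122 to 184, with 4 of 7 tested called higher; Epcam, Krt5, Krt14 and Cdh1 were at 0 in some libraries. Fibroblast markers summed to 36444 to 41401 against 19283 to 34338, with 5 of 10 called higher and 1 lower. Smooth muscle and pericyte markers summed to 22711 to 25920 against 15518 to 20666, with 4 of 10 called higher and 0 lower. Cardiomyocyte markers went the other way, 698150 to 804960 at 14 months against 844350 to 1337200 at 5 months, with 6 of 12 called lower and 2 higher. Macrophage sums (4018 to 5573 against 3691 to 5183), Schwann cell sums (383 to 561 against 425 to 457) and erythroid sums (6789 to 66930 against 2730 to 13775) overlapped between the ages. Of the 10 macrophage markers 3 were called higher and 0 lower, and no Schwann cell or erythroid marker was called. Adipocyte sums were 7557 to 9946 against 11994 to 12105, most of it Fabp4 (-0.64 log2, called lower), while 6 of 9 tested markers had estimates above 0 (median 0.45 log2) and Lipe (0.74) was called higher. Plakoglobin is also found in endothelial junctions, and Jup and Cdh5, the endothelial cadherin, had a ratio of 0.840 and 1.09 in KO and 0.789 and 0.839 in WT at 14 months, against 0.904 in KO and 0.842 in WT at 5 months. This ratio was chosen after the values were seen, and Cdh5 (1.35 log2 with age) was the endothelial marker with the highest estimate. The list as a whole had a median of 0.39 log2, with 8 markers above 0 and 2 below. Eng stood at 1.28, Kdr at 0.97, Emcn at 0.77, Tie1 at 0.46, Tek at 0.32 and Pecam1 at 0.30 log2. Cldn5 stood at 0.02, Vwf at -0.40 and Egfl7 at -0.79 log2. The part of cell makeup in the age differences was not tested.

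The genotype difference was then compared between the ages, as KO minus WT at 14 months minus that at 5 months. No member passed the limma fit with the interaction term, against 2.08% of all genes, while 6 members and 23.2% of all genes had an unadjusted p under 0.05. Ctnna1 lay closest to the threshold, at 0.94 log2 (SE 0.18, limma adjusted p = 0.0512). It was higher at 14 than at 5 months by 0.59 log2 in KO while in WT the difference was -0.35 log2. The contrast rests on 1 library of each genotype at 5 months (5037 in KO, 9448 in WT), which are its lowest and highest values of the 6. Without KO replicate 1 it passed (1.07, limma adjusted p = 0.0371), and the adjusted p over its alternatives ran from 0.0371 to 0.209.

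The other members with an unadjusted p under 0.05 were Cdh2 at 0.67 log2 (SE 0.19, limma adjusted p = 0.110), Tjp1 at 0.49 (SE 0.18, limma adjusted p = 0.162), Pkp2 at 0.43 (SE 0.15, limma adjusted p = 0.160), Jup at 0.37 (SE 0.15, limma adjusted p = 0.199) and Dsg2. Dsg2 alone of these went down, at -0.50 (SE 0.17, limma adjusted p = 0.149): the 5-month pair stood at 1691 in KO against 1266 in WT. Scaled to the total without mitochondrial genes, Dsg2 passed at -0.77 log2 (limma adjusted p = 0.0434). The 7 positive and 2 negative estimates share the same single pair of 5-month libraries. Over the whole table the interaction count was 287 genes, and it was 4 without the filter and 7 without the trend and robust options of limma. Fibroblast markers in that pair summed to 19283 in KO and 34338 in WT, and cardiomyocyte markers to 844350 in KO and 1337200 in WT; their part was not tested.

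**Figure D5:**
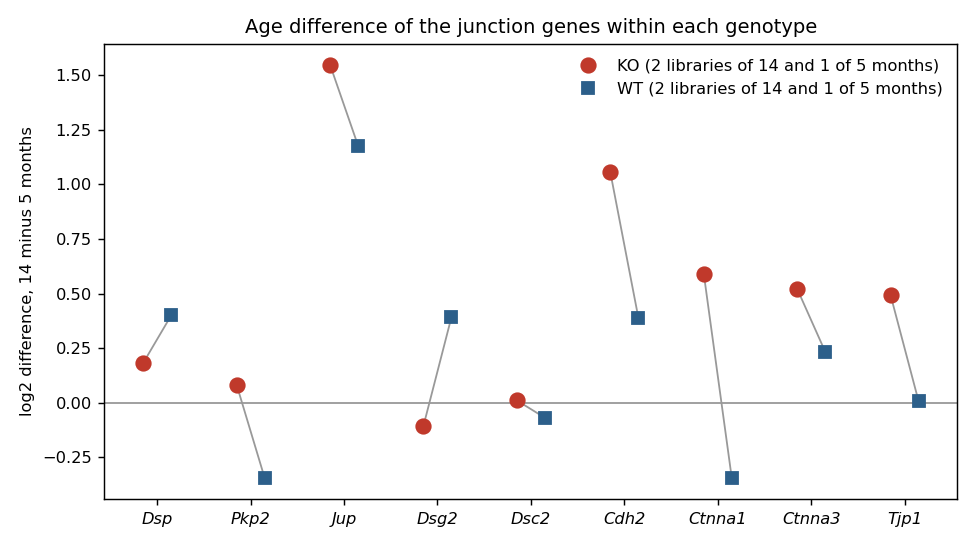
The 14 minus 5 months log2 difference of each junction gene within KO (red circles) and within WT (blue squares), each from 2 libraries of 14 months and 1 of 5 months, with a grey line joining the genotypes. For Ctnna1 the points are 0.59 in KO and -0.35 in WT, and Jup is high in both, at 1.55 in KO and 1.18 in WT.

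Ratios within a library leave its scaling out. The log2 ratio of Ctnna3 to Ctnna1 was -3.88 ± 0.05 in KO and -4.07 ± 0.34 in WT (SD, n = 3 each; exact permutation p = 0.5), with WT replicate 3 apart at -4.46. For Dsc2 over Dsg2 it was -0.94 ± 0.10 in KO and -0.74 ± 0.27 in WT (n = 3 each; exact permutation p = 0.3), again with WT replicate 3 apart at -0.43. Dsg2 over Cdh2 lay between -2.06 and -1.84 in 5 libraries and at -0.80 in KO replicate 3 (genotype exact permutation p = 0.9, age p = 0.133). In 6 such two-sided tests, of genotype and of age, the smallest adjusted p was 0.6 (exact permutation); 3 against 3 libraries cannot go below 0.1, and 4 against 2 not below 0.0667.

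Other components of the disc were taken from 3 lists of named genes. None of the genes tested in them was called between KO and WT by limma. Of other desmosome genes, 13 of 14 had a row and 5 were tested. Pkp4, a plakophilin relative of cell junctions, was lower at 14 months, at -0.51 log2 (SE 0.11, limma adjusted p = 0.0107), while Des, the desmin of the filaments, differed by 0.12 (SE 0.13) and Perp, a desmosome membrane protein, by -0.14 (SE 0.13). The KO minus WT differences were -0.16 log2 for Des (SE 0.13) and -0.13 log2 for Perp (SE 0.12).

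Among other adherens junction genes 14 of 17 were tested, and 7 were higher and 0 lower at 14 months by limma, where 17.7% of all genes tested were higher and 16% lower. Their median was 0.61 log2. Among them were Cdh4, a cadherin of nerve and muscle, at 2.49 (SE 0.29, limma adjusted p = 0.000959), the nectin gene Nectin1 at 1.39 (SE 0.26), and Cdh5 at 1.35 (SE 0.14). Cdh11, a cadherin of mesenchymal cells, at 0.93 (SE 0.16) and Vcl, the vinculin that binds alpha-catenin and actin, at 0.88 (SE 0.19) also rose. Ctnnb1, beta-catenin, stood at -0.19 log2 (SE 0.15) for age and -0.25 (SE 0.14) for genotype, and Cdh13, the membrane-anchored T-cadherin, at 0.60 (SE 0.23) and -0.12 (SE 0.21). Cdh13 was also called for the interaction at 1.13 log2 (SE 0.15, limma adjusted p = 0.0293), with a single low library, 1254 in KO replicate 3.

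All 23 other intercalated disc genes were tested, and 8 were higher and 2 lower at 14 months, against the same 17.7% and 16% of all genes, with a median of 0.29 log2. Zyx, the focal adhesion protein zyxin, was higher by 2.05 (SE 0.16) and Xirp1, an actin-binding protein of the disc, by 1.53 (SE 0.15). Ldb3, a Z-disc protein, at 0.97 (SE 0.16) and Flnc, a muscle filamin, at 0.87 (SE 0.11) also rose, and Itgb1, the integrin beta-1 chain, fell by 0.57 on the log2 scale (SE 0.12). Xirp2, a relative of Xirp1, went down with age, at -0.47 (SE 0.15, limma adjusted p = 0.0446), and Nrap, an actin anchor of the disc, up, at 0.40 (SE 0.13, limma adjusted p = 0.0472). For the interaction, where 2.08% of all genes were called, limma called Ldb3 (0.68) and Gja1, the gap junction connexin 43 that binds ZO-1 (limma adjusted p = 0.0362). Gja1 had 6169 and 6317 in KO and 5319 and 4309 in WT at 14 months, with 3545 in KO and 6249 in WT at 5 months. It is named here because of these values.

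The likeness of patterns was measured as the root mean square difference of log2 values over the 6 libraries, each gene centred on its own mean. Nearest to Jup was Nfatc1 at 0.0400 log2, with 437, 429 and 146 in KO and 406, 409 and 174 in WT, and then Gaa at 0.0698, where the median distance of all genes from Jup was 0.699. Cdh2 lay closest to Trib1 (0.0522) and Wnk1 (0.0606), and Ctnna1 to Pkm (0.0535) and Atxn10 (0.0584). The nearest to Ctnna3 were Gfm1 (0.0307) and Nrap (0.0308), itself a disc gene. Dsp was nearest to Dennd4a (0.0340) and Shc1 (0.0437), Pkp2 to Oxsm (0.0147) and Mrpl39 (0.0218), Dsg2 to Mindy2 (0.0211) and Zfp219 (0.0284), Dsc2 to Tpm3 (0.0315) and Creg1 (0.0364), and Tjp1 to Medag (0.0259) and P2rx7 (0.0261). Within the 9, the closest pair was Dsp and Dsg2 at 0.117 log2 and the most distant Pkp2 and Jup at 0.715. With 6 libraries and 13823 genes, close matches are many, so these are descriptions of these libraries.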

How the data were processed

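RNA of 6 mouse hearts was sequenced. Salmon 1.5.2 and the mm10 build are named per the submitters' processing notes; for other settings, and for the scaling, nothing is given in the sources used here. What the authors deposited is a normalized signal per gene: no value above 0 is exactly whole, and the median ratio of a library's genes to their geometric mean was 1.00 to 1.01. Of 20362 lines, 108 held broken text and were left out. GENCODE M21 (GRCm38, the same assembly as mm10) gave names for 20122 of 20254 identifiers, and RefSeq gave the promoter windows searched, those of Dsp, Jup, Ctnna3 and Tjp1. No 2 libraries had more than 4.33% of genes within 1% of each other, so none was a copy.

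limma 3.58.1 (R 4.3.3, trend and robust options) was fitted on log2(value + 1) for genes at 10 or more in at least 3 libraries (13823 tested, 6431 left out), with Benjamini-Hochberg adjustment over all genes tested and a threshold of 0.05. A fold on this scale understates the change of low genes. Genotype was tested with age in the model and age with genotype in the model, and their interaction in a model of its own. SD is over the libraries of a group, and SE is limma's moderated standard error. Named genes were the 9 members, list genes called for genotype or age (up to 6 per list and contrast by size), the 3 most abundant of each list and the 2 nearest neighbours of each member. Some list genes are not reported here. Members, lists and tests were chosen with earlier results of these data known. Alternatives were pseudocounts of 0.5 and 5, no filter, other scalings, plain limma, a replicate block, no covariate, each library left out and, chosen after seeing the data, removal of trends with GC content and exon length and ratios without single libraries.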

Additional observations from a re-analysis of the deposited data

How the results depend on the processing

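The genotype count of members stayed at 0 and the Jup age call held in every alternative run. Scaled to the total without mitochondrial genes, KO minus WT turned to 0.020 log2 for Ctnna3 and 0.035 for Tjp1, age to 0.068 for Pkp2 and 0.17 for Dsc2, and the interaction to -0.19 for Dsc2; 5 members were called for age and 1 for the interaction. After removal of GC and length trends, KO minus WT was -0.0030 for Dsp and -0.058 for Jup, and age was -0.054 for Dsp, 0.16 for Dsc2 and -0.049 for Ctnna1. Interaction calls over all genes numbered 287, against 4 without the filter, 12 after quantile normalization, 750 scaled to the total without mitochondrial genes, 118 after trend removal and 7 in plain limma. With coding transcript length 3 of 9 members kept their rank. The causes were not tested. With 1 or 2 libraries per genotype and age, and unknown read depth, small differences could not be resolved.

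With libraries left out, KO minus WT gave 0 to 84 genes (84 without replicate 2, 5 without KO replicate 3, 5 without WT replicate 3, 1 without WT replicate 2) and 0 members. KO minus WT was not fitted without replicate 1. Without replicate 2 the fit had 1 library per genotype and age, too few to gauge the spread of a single gene. The KO minus WT log2 ranges were -0.058 to 0.13 for Dsp, -0.037 to 0.15 for Jup and -0.082 to 0.18 for Dsg2. They were -0.42 to 0.023 for Cdh2, -0.53 to 0.029 for Ctnna1, -0.19 to 0.010 for Ctnna3 and -0.17 to 0.091 for Tjp1. Age gave 2266 (without replicate 1) to 4523 genes and 1 (without replicate 1) to 5 members. Without WT replicate 3, with 1 library of 5 months left, the age differences were 0.59 log2 for Ctnna1, 0.52 for Ctnna3 and 0.49 for Tjp1. Without KO replicate 3, again with 1 such library, they were -0.34 log2 for Pkp2 and 0.39 for Dsg2. Age ranges were -0.34 to 0.083 for Pkp2, -0.11 to 0.39 for Dsg2, -0.11 to 0.049 for Dsc2 and -0.35 to 0.59 for Ctnna1. The interaction gave 14 (without WT replicate 2) to 247 genes, with 18 without WT replicate 1, and 0 to 1 members, with -0.041 to 0.20 for Dsc2. It could not be fitted without KO replicate 3 or WT replicate 3, each the only one of its kind. The ratio of Ctnna3 to Ctnna1 by age ran from -0.059 to 0.57, of Dsc2 to Dsg2 by age from -0.47 to 0.12, and of Dsg2 to Cdh2 by genotype from -0.10 to 0.53.

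Same-numbered libraries correlated in their deviations at 0.390, 0.383 and 0.617, and different numbers of 14 months at 0.369 and 0.382. Within 14 months same-numbered and other libraries thus correlated about alike. The deviations were from genotype means over both ages, so age differences enter these correlations. Replicate 1 minus replicate 2, both of 14 months, correlated at 0.0147 between KO and WT. Replicate 2 of each genotype also shared low Y-linked signal, and nothing in the labels pairs the libraries. With the replicate block 0 genes and 0 members were called between KO and WT.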
